A study of Mus musculus with 7 samples.

Results

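The Bcl-2 family genes described here are 9 genes that decide between survival and death of a cell: Bcl2, Bcl2l1 (Bcl-xL) and Mcl1, which hold death back, Bax and Bak1, which carry it out, and Bcl2l11 (Bim), Bid, Bbc3 (Puma) and Pmaip1 (Noxa), which set it off. A Runx3-bound or H3K4me1-marked region was assigned to a gene when its midpoint lay in the gene body or within 20 kb of it, in the GENCODE annotation of the mouse build NCBIM37 (mm9), which lists 22350 protein-coding genes. By this rule the 9 genes held 5 of the 4934 Runx3-bound regions and 132 of the 76705 H3K4me1-marked regions. No region was assigned to more than 1 of the 9 genes. The regions came from ChIP-seq of resting CD8+ T cells (CD8-TC) of wild-type (WT) ICR mice, isolated from spleen on magnetic beads coated with anti-CD8, fixed and frozen. Cells of 18 mice were collected, and the labels do not say how the mice were divided between repeats. The 7 libraries were 3 for the transcription factor Runx3, precipitated with a polyclonal antiserum, of which 2 are labelled as files of the same immunoprecipitation, 2 for histone H3 monomethylated at lysine 4 (H3K4me1), and 2 with non-immune serum (NIS) as control, with 2 biological repeats in each group. Peaks were called by the authors on the joined repeats of each antibody, so that no value below has a replicate error, no difference could be tested against the spread between repeats, and the depth behind a region is unknown.

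Mitochondria release the factors that start the caspase cascade once Bax and Bak form pores in their outer membrane. The anti-death proteins bind the pore formers and the BH3-only proteins, and the BH3-only proteins, induced or activated by cytokine withdrawal, DNA damage or death receptors, displace them. In T cells Bcl-2 and Mcl-1 sustain resting cells that receive interleukin signals, and Bim removes cells that lose them. Runx3 is a transcription factor of the cytotoxic lineages that binds the RUNX motif, and H3K4me1 is found at enhancers, the distant control elements of genes.

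The sequences under 4 of the 5 Runx3-bound regions are shown because they carry the binding described below. Each is 300 bases around the midpoint of the called region, on the plus strand of NCBIM37, with the RUNX letters TGTGGT (or their complement ACCACA on the other strand) in capitals. The sequence is that of the reference genome and not of the ICR mice. Bcl2 region 1 is shown over chr1:108497406-108497705, Bcl2 region 2 over chr1:108509269-108509568, the Bcl2l1 region over chr2:152601149-152601448, and the Bcl2l11 region over chr2:127978813-127979112.
Bcl2 region 1: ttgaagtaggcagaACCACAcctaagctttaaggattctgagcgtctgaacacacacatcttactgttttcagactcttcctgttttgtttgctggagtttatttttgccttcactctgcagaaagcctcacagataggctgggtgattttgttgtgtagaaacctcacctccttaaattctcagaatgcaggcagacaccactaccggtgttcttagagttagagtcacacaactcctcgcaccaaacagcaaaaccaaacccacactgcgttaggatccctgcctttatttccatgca
Bcl2 region 2: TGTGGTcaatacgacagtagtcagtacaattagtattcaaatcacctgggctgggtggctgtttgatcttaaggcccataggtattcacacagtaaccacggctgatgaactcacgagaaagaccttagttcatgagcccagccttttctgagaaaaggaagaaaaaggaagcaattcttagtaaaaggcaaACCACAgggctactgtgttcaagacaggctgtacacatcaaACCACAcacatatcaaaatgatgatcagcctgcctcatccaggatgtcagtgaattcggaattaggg
Bcl2l1 region: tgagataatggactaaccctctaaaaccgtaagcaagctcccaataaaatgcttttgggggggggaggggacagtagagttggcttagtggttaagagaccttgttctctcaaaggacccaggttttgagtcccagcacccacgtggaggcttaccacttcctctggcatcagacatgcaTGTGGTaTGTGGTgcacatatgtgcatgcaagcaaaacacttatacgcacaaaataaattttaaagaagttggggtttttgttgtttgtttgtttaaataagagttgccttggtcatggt
Bcl2l11 region: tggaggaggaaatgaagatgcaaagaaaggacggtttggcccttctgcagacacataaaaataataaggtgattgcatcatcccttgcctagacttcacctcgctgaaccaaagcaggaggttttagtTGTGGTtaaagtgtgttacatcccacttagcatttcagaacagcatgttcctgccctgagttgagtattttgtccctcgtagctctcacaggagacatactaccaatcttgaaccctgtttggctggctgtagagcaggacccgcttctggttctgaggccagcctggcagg

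The 4 stretches held 1, 3, 2 and 1 match to the RUNX letters, in the order shown. In the Bcl2l1 region the pair of matches stood on the same strand with a single base between them. In Bcl2 region 2 the first match opened the stretch and the other two lay on the opposite strand, to the right of its midpoint.

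Runx3-bound regions were found at 4 of the 9 genes. These were Bcl2 with 2 regions and Bcl2l1, Bcl2l11 and Pmaip1 with 1 region each, whereas Mcl1, Bax, Bak1, Bid and Bbc3 had none. Among all protein-coding genes 19.8% had at least 1 Runx3-bound region in the same window. The genes differ in length, and a long window catches more regions. Bcl2, the longest of the 9, spans 176.1 kb, and of the 2399 protein-coding genes of 100 kb or more 32.1% had a Runx3-bound region and 12.1% had 2 or more. Of the 5 members with a window under 50 kb only Pmaip1 had one, and the share over the 8856 genes with such windows was 13.5%. Per 100 kb of window the density was 0.926 regions at Bcl2, 0.958 at Bcl2l1, 1.31 at Bcl2l11 and 2.13 at Pmaip1. Bcl2l1, Bcl2l11 and Pmaip1 hold 1 region each, so the order among them follows from window length alone.

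Membership in the 4 depended on the margin. In the gene body alone, Bcl2, Bcl2l1 and Bcl2l11 kept their regions and Pmaip1 lost its region, which lies beyond the gene end. The gene bodies of 8.52% of all protein-coding genes held a Runx3-bound region. With a margin of 50 kb Mcl1 and Bbc3 gained 1 region each, at 44.5 and 46.3 kb beyond the gene, and Bcl2 gained 1 more region (chr1:108411987-108412930) that lay 22.3 kb beyond its end. At that margin 6 of the 9 genes and 30.8% of all protein-coding genes had a region. Bax, Bak1 and Bid had none at any margin tried.

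**Figure D1:**
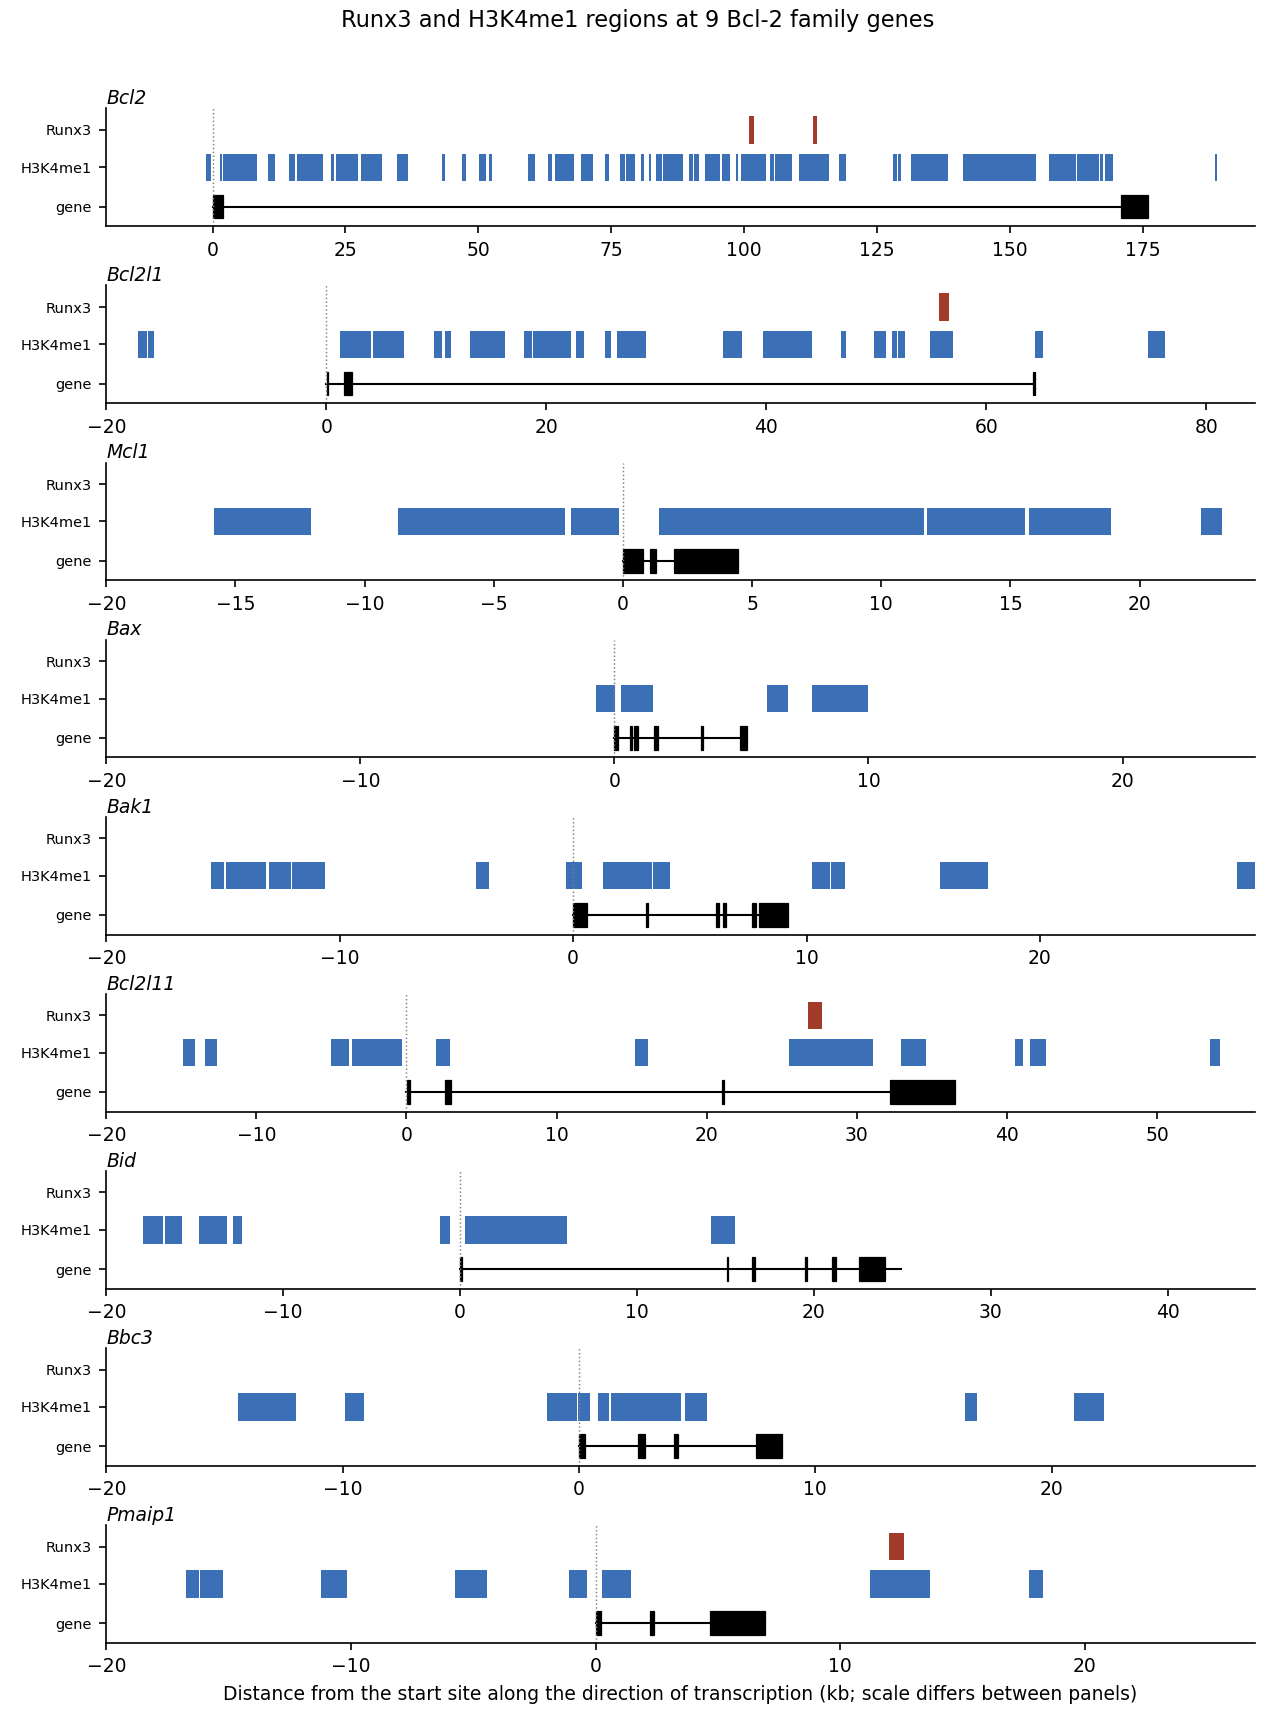
Maps of the 9 genes, with the distance from the start site in kb along the direction of transcription on the x axis (the scale differs between panels), Runx3-bound regions in red, H3K4me1-marked regions in blue and the exons of the protein-coding transcript with the longest coding sequence as black boxes. All 5 Runx3-bound regions lie inside H3K4me1-marked regions and none lies at a start site.

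All 9 genes carried H3K4me1-marked regions, as did 73.6% of all protein-coding genes. The counts were 52 at Bcl2, 22 at Bcl2l1, 7 at Mcl1, 4 at Bax, 12 at Bak1, 11 at Bcl2l11, 7 at Bid, 9 at Bbc3 and 8 at Pmaip1. Of the 132 regions 76 had their midpoint in an intron, 7 in an exon, 29 upstream and 20 downstream of the gene. The 9 windows together measured 696.3 kb, of which 33.5% lay inside H3K4me1-marked regions, whereas these regions took up 4.14% of the genome. Bcl2 alone made up 216.1 kb of these windows, and the genome share also counts bases far from any gene. The cover of a single window ranged from 11.2% at Bax to 67.7% at Mcl1, with a median of 23.0%. The median over all protein-coding genes was 5.75%, and all 9 genes lay above it, for the window and also for the gene body alone (median of all genes 4.13%).

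**Figure D2:**
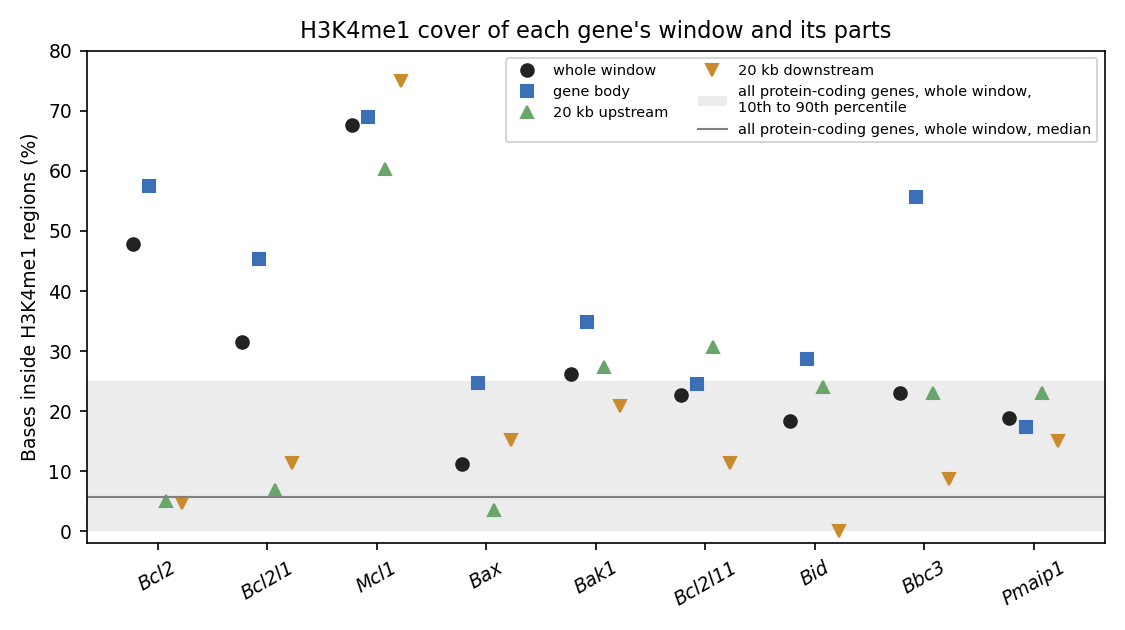
Percent of bases inside H3K4me1-marked regions (y axis) for the whole window, the gene body and the 20 kb on either side of each of the 9 genes (x axis). The line and the grey band give the median and the range from the 10th to the 90th percentile of whole windows over all protein-coding genes. Mcl1 and Bcl2 have the highest whole-window cover, and Bax the lowest.

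Among the anti-death genes, Bcl2 was marked along its body rather than around it. Bcl-2 sits in the outer membrane of mitochondria and is the founding member of the family. H3K4me1 covered 57.5% of the Bcl2 gene body, but 5.05% of the 20 kb upstream and 4.69% of the 20 kb downstream. Its whole-window cover of 47.8% stood at the 98.8th percentile of protein-coding genes. Long genes had little of the mark. The median body cover of the 2399 genes of 100 kb or more was 1.97%, and 13 of them lay above Bcl2. Of the 52 regions of Bcl2 all but 3 lay in its intron, which is 168.9 kb long and the only intron of the annotated transcript. The region widths at Bcl2 ran from 447 to 9281 bp with a median of 1191.5 bp, and the widest lay 150.2 kb from the start site, toward the end of the intron. Joining neighbours within 1 kb left 25 blocks, of which the largest measured 16.5 kb and held Bcl2 region 2.

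The 2 Runx3-bound regions of Bcl2 lay in the middle of that intron. Bcl2 region 1 (chr1:108497153-108497958) was 806 bp wide and its midpoint was 113.3 kb from the start site. Bcl2 region 2 (chr1:108508908-108509929) was 1022 bp wide, 101.4 kb from the start site, and its midpoint was 11.9 kb from that of region 1. The widths compare with a median of 851 bp over all Runx3-bound regions. The H3K4me1-marked regions around them were 5646 and 4859 bp wide, which placed them 2nd and 5th by width among the 52 at Bcl2. Bcl2 was the protein-coding gene with the nearest start site for both. The Runx3-bound region nearest to the Bcl2 start site was neither of these, but one 82.6 kb upstream that lay 98 bp from the start of Vps4b, a gene of endosomal sorting.

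Bcl2l1 encodes Bcl-xL, a close relative of Bcl-2 that protects developing and activated T cells. H3K4me1 covered 45.3% of the Bcl2l1 gene body and 31.5% of its window, the latter at the 94.2nd percentile. As at Bcl2 the flanks held less, with 6.86% upstream and 11.4% downstream. The single Runx3-bound region at Bcl2l1 (chr2:152600825-152601771, 947 bp) lay 56.2 kb from the start site, inside an H3K4me1-marked region of 2141 bp that ranked 6th by width of the 22. Its assignment to Bcl2l1 depends on the transcript and on the rule. The region falls in the gene body through only 1 of the 10 annotated transcripts, and the protein-coding gene with the nearest start site was Cox4i2, a subunit of cytochrome c oxidase, at 21.4 kb. Of the 22 H3K4me1-marked regions of Bcl2l1, 12 had the Bcl2l1 start site as the nearest protein-coding start.

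Mcl1 had the densest H3K4me1 cover of the 9 genes and no Runx3-bound region. Mcl-1 is a short-lived anti-death protein that T cells need at every stage. The gene is 4.46 kb long, and H3K4me1 covered 68.9% of its body, 60.3% of the 20 kb upstream and 74.9% of the 20 kb downstream. The cover of the window stood at the 99.9th percentile. Only 7 regions made up this cover, with a median width of 3771.0 bp against 979.0 bp over the whole list, and the widest measured 10268 bp. Neighbours within 1 kb joined into a block of 17.5 kb that began 1385 bp after the start site and ran past the end of the gene, the largest block at any of the 9 genes. The nearest Runx3-bound region lay 49.0 kb downstream, with the metalloprotease-like gene Adamtsl4 as the nearest protein-coding start at 19.8 kb.

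**Figure D3:**
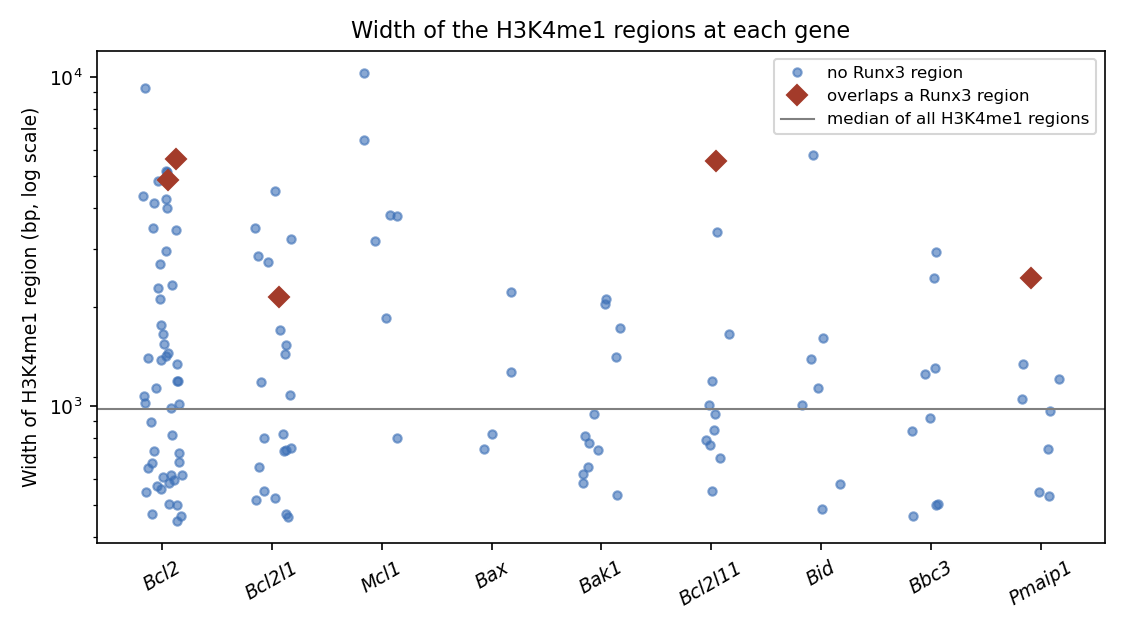
Width in bp (y axis, log scale) of each of the 132 H3K4me1-marked regions at the 9 genes (x axis), with the regions that overlap a Runx3-bound region as red diamonds and the median of the whole H3K4me1 list as a line. The diamonds lie above the median at Bcl2, Bcl2l1, Bcl2l11 and Pmaip1, and are the widest region of the gene at Bcl2l11 and Pmaip1.

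The pore-forming effectors had no Runx3-bound region. Bax, which moves from the cytosol to mitochondria when a cell is triggered to die, had the lowest H3K4me1 cover of the 9 genes, 11.2% of its window at the 67.6th percentile. Its 4 regions included 1 of 740 bp over the start site and 1 of 1264 bp shortly after it. The other two lay downstream and were nearer to the start of Ftl1, the ferritin light chain gene. Bak1, whose product is already in the mitochondrial membrane, had 12 regions that covered 26.2% of its window, at the 90.9th percentile, and 34.9% of its body. The nearest Runx3-bound regions were 71.3 kb from the Bax start site, where the nearest protein-coding start was that of Snrnp70 at 130 bp, and 276.4 kb from the Bak1 start site, the longest distance of the 9.

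Among the BH3-only genes, Bcl2l11 held a Runx3-bound region within the gene. Bim, its product, binds all anti-death members and drives death after cytokine loss. The region (chr2:127978489-127979436, 948 bp) lay 27.2 kb from the start site in intron 3, within the span of 4 of the 8 annotated transcripts, and Bcl2l11 was the protein-coding gene with the nearest start. It was enclosed by an H3K4me1-marked region of 5547 bp, the widest of the 11 at this gene. H3K4me1 covered 22.7% of the window of Bcl2l11, with 24.6% of the body, 30.6% of the 20 kb upstream and 11.3% of the 20 kb downstream. When regions were given to the protein-coding gene with the nearest start instead, Bcl2l11 gained a second Runx3-bound region, 163.2 kb beyond its end.

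Pmaip1 encodes Noxa, a small BH3-only protein that opposes Mcl-1 and is induced by p53. Its Runx3-bound region (chr18:66630257-66630852) was 596 bp wide, narrower than most regions of the list (7.28th percentile), and lay 12.3 kb from the start site and 5.35 kb beyond the gene end. No other protein-coding gene overlapped the window of Pmaip1, and Pmaip1 had the nearest start. The H3K4me1-marked region around it measured 2456 bp and was the widest of the 8 at Pmaip1. H3K4me1 covered 18.9% of the window of Pmaip1.

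Bid and Bbc3 had H3K4me1 only. Bid links death receptors to mitochondria after it is cut by caspase-8, and 28.7% of its body, 24% of its upstream flank and none of its downstream flank lay inside H3K4me1-marked regions. A region of 5776 bp that began 275 bp after the start site accounted for most of the cover of the body. Bbc3 encodes Puma, a BH3-only protein induced by p53. H3K4me1 covered 55.7% of its body, which is 8.59 kb long, but 23.1% of the 20 kb upstream and 8.78% of the 20 kb downstream. The nearest Runx3-bound regions were 116.9 kb from the Bid start site and 54.9 kb from the Bbc3 start site, and in neither case was the member the gene with the nearest start.

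**Figure D4:**
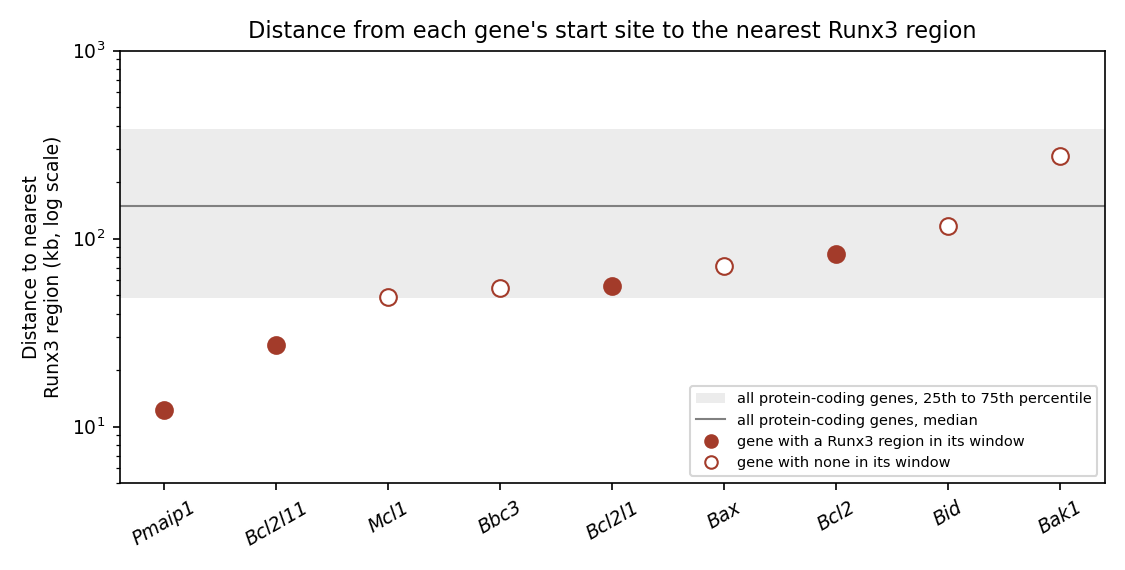
Distance in kb (y axis, log scale) from the start site of each of the 9 genes (x axis) to the midpoint of the nearest Runx3-bound region. Filled points are genes with a region in their window and open points are genes without, the line is the median of 148.6 kb over all protein-coding genes, and the band spans 48.6 to 381.6 kb (25th to 75th percentile). The distances run from 12.3 kb at Pmaip1 to 276.4 kb at Bak1, and 8 of the 9 lie under the median line.

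The distance from the start site to the nearest Runx3-bound region had a median of 148.6 kb over all protein-coding genes. Only Bak1 lay above it. Pmaip1, at 12.3 kb, was the closest of the 9, followed by Bcl2l11 at 27.2 kb and Mcl1 at 49.0 kb. Filled and open points overlapped in that ranking. Mcl1 and Bbc3, without a region in their windows, were nearer to a Runx3-bound region than Bcl2l1 (56.2 kb) and Bcl2 (82.6 kb). Bax, also without one, was nearer at 71.3 kb than Bcl2. The distance of Bcl2 is to the region near the Vps4b start, as the regions in its intron lie 101.4 and 113.3 kb away.

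Of the 5 Runx3-bound regions 4 lay over 5 kb from any annotated transcript start, against 63.9% of the whole list. The other was the Bcl2l1 region, 2.67 kb from the start of an annotated microRNA, and over protein-coding transcripts alone all 5 were farther than 5 kb, beside 70.8% of the whole list. All 5 overlapped H3K4me1-marked regions (Wilson 95% interval 56.6 to 100%, which covers counting error over regions only). Over the whole Runx3 list 78.8% did so. The cover was complete, with 100% of the bases of each region inside an H3K4me1-marked region, beside 50.6% of the whole list with complete cover and 66.1% with the midpoint inside. In the other direction 5 of the 132 H3K4me1-marked regions at the 9 genes overlapped a Runx3-bound region, beside 5.49% of the H3K4me1 list. The NIS libraries served as the control for both antibodies, and the part of a local lack of NIS reads in the overlap was not tested.

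The start sites were marked in different ways. Those of Bax, Bak1 and Bbc3 lay inside an H3K4me1-marked region, 3 of 9 beside 17.7% of all protein-coding genes. At Bcl2, Mcl1, Bcl2l11, Bid and Pmaip1 the start site lay in a gap between marked regions whose edges were within 2 kb on both sides, a limit set after these values were seen. That was 5 of 9 genes beside 29.3% of all protein-coding genes. The gap measured 1645 bp at Bcl2, 1555 bp at Mcl1, 2225 bp at Bcl2l11, 816 bp at Bid and 577 bp at Pmaip1. At Bcl2, Mcl1 and Bcl2l11 the nearer edge was the upstream one, at 318, 171 and 266 bp, and the downstream edge lay 1328, 1385 and 1960 bp into the gene. Bcl2l1 fell in neither class, with a downstream edge at 1236 bp and the next upstream edge at 15.7 kb.

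RUNX letters (TGTGGT, also TGTGGC, also TGCGGT, also TGCGGC, on either strand) were present in all 5 Runx3-bound regions, beside 88.8% of the whole list, and in the central 200 bp of 3, beside 66.0%. The 3 were Bcl2 region 2 and the regions of Bcl2l1 and Bcl2l11. The 15 matches in all were 10 of TGTGGT, 3 of TGTGGC, 1 of TGCGGT and 1 of TGCGGC, a density of 3.47 per kb against 2.96 per kb over the whole list. Bcl2 region 2 held 5 of them, and 12.2% of Runx3-bound regions had 5 or more. The letters TGTGGT, or else TGTGGC, occurred in the 4 regions shown above, beside 83.8% of the whole list. The region of Pmaip1 held none of these, and its matches were TGCGGC at 109 bp and TGCGGT at 108 bp on either side of the midpoint. The letters TGCGGT, or else TGCGGC, occurred in 1 of the 5 regions and in 29.0% of the whole list.

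**Figure D5:**
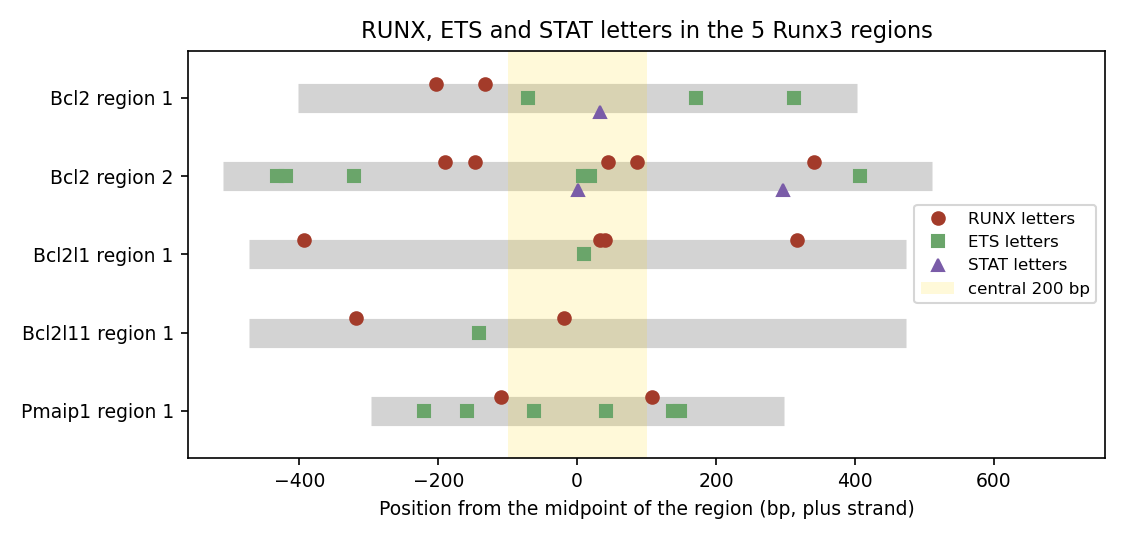
Positions in bp from the midpoint on the plus strand (x axis) of RUNX, ETS and STAT letters in the 5 Runx3-bound regions (y axis), drawn to scale as grey bars with the central 200 bp shaded. RUNX letters lie within the shaded part in Bcl2 region 2 and in the regions of Bcl2l1 and Bcl2l11, and STAT letters in both Bcl2 regions.

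The position of the RUNX letters differed between the regions. At Bcl2l11 a TGTGGT match was centred 19 bp from the midpoint, at Bcl2l1 the pair lay at 33 and 40 bp, and at Bcl2 region 2 the 2 central matches lay at 45 and 86 bp. In Bcl2 region 1 the nearer of its 2 matches lay 133 bp away. Letters of other factors were searched in the same central windows. ETS letters (AGGAAA, also AGGAAG, also CGGAAA, also CGGAAG) were found in 4 of the 5, beside 63.8% of the whole list, with Bcl2l11 the exception. The smallest spacing between RUNX and ETS letters was 17 bases at Bcl2l1 and 20 bases at Bcl2 region 2. STAT letters (TTCNNNGAA), the paired letters bound by the factors that transmit interleukin signals, were found in 2, beside 6.73%, and both were the Bcl2 regions, at 33 bp and 1 bp from the midpoint. AP-1 letters (TGACTCA, also TGAGTCA) and FOXO letters (GTAAACA) were found in 0 of the 5, beside 4.58% and 3.63% of the whole list. These are shares of 5 regions, and the letters describe the reference sequence and not binding.

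RUNX letters were also frequent in H3K4me1-marked regions. They occurred in 110 of the 132 H3K4me1-marked regions at the 9 genes, beside 81.5% of the H3K4me1 list, at 1.97 per kb against 1.94 per kb. The 39 H3K4me1-marked regions of Mcl1, Bax, Bak1, Bid and Bbc3 held 148 matches in 30 regions, with no called Runx3-bound region among them. At Serpin genes the authors describe regions that seem bound in resting CD8-TC but were missed as peaks, which they put down to higher background. The lack of a called region at these genes therefore need not mean a lack of binding. At Mcl1 alone there were 61 matches in 7 regions. In the central 200 bp of the 5 Runx3-bound regions no 24-base word occurred 10 times or more in the genome, as in 89.4% of the whole list. This measure does not see old, diverged copies of repeats.

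Other genes of the pathway were described by the same rule. Of 14 further Bcl-2 family genes, 2 had Runx3-bound regions, beside 19.8% of all protein-coding genes. They were Bcl2l14 with 1 and Bcl2l15 with 2, and both regions of Bcl2l15 were nearest to the start of Ptpn22, a phosphatase gene of T cells. H3K4me1-marked regions were present at 13 of the 14, beside 73.6% of all protein-coding genes, with a median window cover of 10.04% (range 0 to 41.4%), beside 23.0% for the 9 genes. The exception, Bcl2a1a, was named after its value was seen. Its near-identical copies Bcl2a1b and Bcl2a1d, also named after their values were seen, had 10 and 7 H3K4me1-marked regions, with a cover of 10.3% and 9.58%. Only uniquely aligned reads were used, and the part of this in the values of the copies was not tested. Of 16 genes of the cell death machinery 5 had Runx3-bound regions, again beside 19.8%. They were Casp8, the initiator caspase of death receptors, Birc2 and Birc3, which curb caspases and shape TNF signalling, Birc5 (survivin) and Fas, a death receptor. The region of Birc3 lay 0.224 kb from its start site and that of Casp8 2.20 kb from its start site. The region of Birc5 was nearest to the start of Tha1, at 1.30 kb, and lay 22.9 kb from that of Birc5. Birc3 also shared a region with Birc2, which was nearest to the start of C330006D17Rik, so that 6 assignments stood for 5 distinct regions. The median window cover of these 16 genes was 11.7%, from 2.52 to 35.3%.

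The cell type was checked with marker genes by the same rule. All 6 markers of CD8 T cells had Runx3-bound regions, beside the 19.8% of all protein-coding genes, and H3K4me1 covered a median of 38.4% of their windows (29.4 to 50.4%). These 6 genes form 3 separate stretches once overlapping windows are joined, and their 18 assignments stood for 14 distinct Runx3-bound regions. Markers of other cells were not all blank. Of 4 B cell markers 2 had Runx3-bound regions, with a median cover of 36.7% (19.9 to 53.4%). Of 4 markers of dendritic cells and macrophages 2 neighbours, Itgax and Itgam, had them, with 2 distinct regions between them, and the median cover of all 4 was 18.2% (0 to 31.2%). Neither the NK cell markers, of which Ncr1 was at 0, nor the erythroid markers had a Runx3-bound region, and the medians of the cover were 11.8% and 4.94%, each over 2 markers (ranges 0 to 23.5% and 1.64 to 8.24%). The upper NK value is that of Klrb1c, with 12 H3K4me1-marked regions, at the 88.5th percentile of protein-coding genes. The part of other cell types in the values at the 9 genes was not tested.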

How the data were processed

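Runx3, H3K4me1 and NIS ChIP-seq libraries of CD8-TC were made from chromatin sheared to some 300 bp. Reads (40 to 42 bp) were aligned to mm9 with ELAND (CASAVA 1.6 and 1.7 per the submitters' processing notes). The authors kept uniquely aligned reads, joined the repeats and called peaks with MACS against NIS, scaling the larger data set to the smaller. The deposited lists give the chromosome, start and end of each region, a position in bp with neither score, summit nor p-value. Peak height, depth and the spread between repeats were therefore not analysed here.

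Starts were moved by 1 bp. All 81639 regions lay within the NCBIM37 chromosome lengths. Regions were assigned to genes by their midpoint with a margin of 20 kb, overlap needed 1 bp, and percentiles rank a gene among all protein-coding genes (ties counted at their middle rank). Motif letters were searched on both strands of the NCBIM37 sequence, and a match to 1 motif could share bases with another. Regions counted as over 5 kb from a start by the midpoint and all annotated transcripts. The assignment and the motif search were tested on simulated data. Python 3.11.15 and matplotlib 3.10.9 were used.

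All 9 genes were named, and of the lists of other Bcl-2 family genes and cell death genes those with a Runx3-bound region. The genes, lists and rules were chosen with earlier results of these data known. The results are descriptions without tests, since each antibody gave 1 list. Alternatives were other margins, counting by any base, the nearest start site, merged or wide H3K4me1-marked regions, stricter overlap, the central 200 bp, protein-coding transcripts and the nearest edge.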

Additional observations from a re-analysis of the deposited data

How the results depend on the processing

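Of 27 alternative values for 7 results, 17 stayed within 1.5 times the reported count, 1.5 included, or within the interval of the reported share, and 10 did not. A count within that limit need not be of the same genes. The intervals of the shares are unlike. For the H3K4me1 cover the interval treats single bases as independent, so it is narrow, and all alternatives fell outside it. For shares of the 5 Runx3-bound regions it is wide, 56.6 to 100% for 5 of 5. RUNX letters in the central 200 bp, found in 60.0% of the 5, therefore stayed within it. The tally of 17 and 10 mixes these unlike limits. The Runx3-bound regions at the 9 genes numbered 8 with a margin of 50 kb, in place of 5. The H3K4me1-marked regions, 132 as reported, numbered 83 in the gene bodies alone, 201 with a margin of 50 kb, 71 after merging neighbours within 1000 bp and 73 when only regions at or above the median width were kept. The H3K4me1 cover of the windows, 33.5% as reported, was 47.6% with no margin, 43.8% with 5 kb, 27.6% with 50 kb and 27.9% with the wide regions alone. The share of Runx3-bound regions over 5 kb from a start site, 4 of 5 as reported, was 100% with protein-coding transcripts, beside 70.8% of the whole Runx3 list. Margins change the bases counted by construction. Genes with a Runx3-bound region, 4 of 9 as reported, numbered 3 with a margin of 0 or 5 kb, without Pmaip1, beside 8.52% and 13.0% of all protein-coding genes. They numbered 6 with 50 kb, with Mcl1 and Bbc3 added, beside 30.8%, and 3 by the nearest start site, which left out Bcl2l1, beside 15.4%. The overlap with H3K4me1 stayed at 100% with a minimum cover, with the midpoint and with the wide regions, beside 68.8%, 66.1% and 70.3% of the whole list.

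No paired analysis was possible because both repeats of an antibody share 1 peak list, which also meant that neither repeat was left out in turn. The lists hold called regions alone, so a weak site below the threshold of MACS and an unbound one cannot be told apart.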
